A study of Sus scrofa with 34 samples.

Results

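Peroxisomal beta-oxidation shortens fatty acids inside the peroxisome, and the enzymes of this pathway were followed in the liver and ileum of weaned piglets. The genes were chosen by name: ACOX2, EHHADH, HSD17B4, ACAA1, SCP2, ECH1, ECI2, PECR and CROT. Of these 9 genes, 8 were matched by symbol to a row of the counts, among 25880 genes counted. SCP2 was not matched and was not analysed here. All 8 genes passed the filter on low counts in both tissues.

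The piglets were weaned crossbred animals, and tissue was taken on day 28 of the trial. All ate a basal diet, alone (Control), with a phytogenic feed additive made of essential oils and nature-identical compounds (PFA), with rapeseed oil that had been oxidized by heating (OO), or with both (OO + PFA). The liver was measured in 24 pigs of 4 diets, and the ileum in 10 pigs of 2 diets, 5 Control and 5 PFA, all of them among the 24. The pigs of a diet shared a single pen, and effects of pen and of diet cannot be told apart. The oxidized oil came in addition to the small amount of fresh rapeseed oil in the basal feed. In the oil diets nearly every other ingredient had a lower share, and the calculated energy was higher. The amount of oil, its oxidation and these changes of the feed cannot be told apart either. Pigs are named here by C, P, OO or OP, for the 4 diets in the order above, and their number in the labels. The samples are pieces of whole tissue, in which fewer cells of a type and less RNA per cell cannot be told apart.

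Between 18738055 and 42446834 read pairs were counted on genes per library. The liver of OP-77 stood apart, with 36.7% of its pairs on no single gene, against 13.5% to 25.9% in the other livers. It was left out of the fits, as in the published work. The fits thus hold 6 Control, 6 PFA, 6 OO and 5 OO + PFA livers. Levels are given as CPM, the usual scaling of counts to a common library size, with library sizes adjusted by the TMM method, and levels of different genes are compared only per kilobase of exon. Differences are log2 fold changes with their standard error (SE), tested two-sided with edgeR's quasi-likelihood test, and a gene was called at an adjusted p (Benjamini-Hochberg, over all genes tested) of at most 0.05. Between 699 and 31897 read pairs were counted per gene and liver, and between 425 and 3963 per gene and ileum, so none of the 8 genes was near the limit of counting. The tissue labels were checked with marker genes: the summed level of 8 hepatocyte markers was 88616 to 200461 CPM in the livers and 3824 to 8689 CPM in the ileum libraries, where TTR and CYP2E1 were at 0 in 10 of 10 and ALB had at most 5 counts. The summed level of 7 enterocyte markers was 18340 to 35379 CPM in the ileum and 259 to 919 CPM in the livers, where SI was at 0 in 22 of 23, FABP6 in 21 and FABP2 in 18. Other markers of both lists were well counted in the other tissue too. In the ileum APOA1 had 21596 to 91923 counts, APOB 42219 to 90619 and CPS1 18410 to 34689. In the livers ANPEP had 5734 to 20215 counts and APOA4 82 to 16641.

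As background, peroxisomes break down fatty acids that mitochondria handle poorly, such as very long chain, branched and dicarboxylic acids and the side chains of bile acid precursors. The cycle runs through an acyl-CoA oxidase, which passes its electrons to oxygen and so makes hydrogen peroxide, a bifunctional enzyme that hydrates and dehydrogenates the product, and a thiolase that cuts off acetyl-CoA. The shortened products leave as carnitine esters or free acids and are finished in the mitochondria. In the liver of rodents the pathway is a classical target of the fatty acid receptor PPAR-alpha.

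Most of these enzymes enter the peroxisome through a short targeting signal at the very end of the protein, and so the last 30 bases of each coding sequence are shown, with the 3 codons before the stop codon in capitals. They were read 5′ to 3′ on the coding strand from Sscrofa11.1 with the RefSeq transcript models.
ACOX2, chr13:40223280-40223309, minus strand: ttattacaaagttggagaTCCAAGCTAtga
EHHADH, chr13:123105940-123105969, minus strand: ttggcaggaccccccagcAGTAAGTTGtga
HSD17B4, chr2:123400665-123400694, plus strand: atgattcttaaagactatGCCAAGATTtga
ACAA1, chr13:22965162-22965191, minus strand: gctgcggtcttcgaatacCCTGGAAACtga
ECH1, chr6:47627241-47627270, minus strand: ctgaagaccatcaccttcTCCAAGCTCtga
ECI2, chr7:2426703-2426732, minus strand: gccttcttgtccaagaagGCGAAGCTAtga
PECR, chr15:118297263-118297292, minus strand: gagtcttacaagaagagaGCCAAGCTCtaa
CROT, chr9:93264337-93264366, minus strand: atgcagctgatgaacattGCTAAGCTTtag
The middle one of the 3 codons was AAG in 7 of 8 genes. The exception was ACAA1, with GGA, and as background the thiolase carries its targeting signal near the start of the protein instead. All transcript models of a gene shared the end shown, except for ACOX2, where 3 of 4 coding models did.

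ACAA1 and ECH1 were the genes that rose with oxidized oil, and the 250 bases before their transcript starts are shown here, together with PECR, which did not and whose window holds the hexamer AGGTCA, the core of the binding sites of many nuclear receptors (in capitals).
ACAA1, chr13:22976862-22977111, minus strand: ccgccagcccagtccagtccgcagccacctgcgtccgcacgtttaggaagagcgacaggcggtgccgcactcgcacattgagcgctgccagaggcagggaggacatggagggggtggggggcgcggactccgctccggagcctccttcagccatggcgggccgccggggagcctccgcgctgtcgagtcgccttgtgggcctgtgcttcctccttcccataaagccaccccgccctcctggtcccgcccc
ECH1, chr6:47638962-47639211, minus strand: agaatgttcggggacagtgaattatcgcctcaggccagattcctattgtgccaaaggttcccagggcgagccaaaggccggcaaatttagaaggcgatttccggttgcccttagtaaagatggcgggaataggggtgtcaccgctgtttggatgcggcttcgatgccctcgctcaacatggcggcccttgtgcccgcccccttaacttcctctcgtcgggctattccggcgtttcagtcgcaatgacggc
PECR, chr15:118335887-118336136, minus strand: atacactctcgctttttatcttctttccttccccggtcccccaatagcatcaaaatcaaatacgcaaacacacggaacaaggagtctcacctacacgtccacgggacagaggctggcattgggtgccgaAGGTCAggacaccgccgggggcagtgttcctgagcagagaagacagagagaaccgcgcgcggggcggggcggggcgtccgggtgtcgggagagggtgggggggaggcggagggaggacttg
The match in PECR begins 121 bases before the transcript start. Searched on both strands, AGGTCA was found in 2 of the 15 windows of the 8 genes, 1 of PECR and 1 of ECI2, and in 11.8% of 46001 windows before RefSeq transcript starts. The direct repeat of AGGTCA with 1 base between the copies, which contains the hexamer and is the form that PPAR-alpha is known to bind, was found in 0.0217% of all windows and in 0 of the 15, and a looser form with any base in place of each T in 0.23% and in 0 of the 15. The 15 windows belong to several transcript models per gene and overlap in part, and the ACAA1 window shown lies inside the longer of the gene's 2 models. No match says only that these letters are not in these windows.

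In the control liver the 8 genes fell into a high and a low group by level per kilobase. HSD17B4 stood at 135 ± 23.8 CPM per kilobase (SD, n = 6), EHHADH at 129 ± 30.9, ACOX2 at 119 ± 12.8, ECI2 at 111 ± 14.9, ACAA1 at 101.96 ± 17.4 and PECR at 84.99 ± 20.8, and in this order each pair of neighbours differed by less than the larger of their SDs. ECH1 followed at 34.2 ± 4.38 CPM per kilobase and did not overlap with PECR, whose lowest control pig had 48.8. CROT was lowest at 19.8 ± 7.98, and its range of 8.54 to 30.5 CPM per kilobase overlapped with that of ECH1, which was 29.4 to 40.7. With OO the order of the means changed at the top, since ACAA1 stood at 165 ± 32.98 CPM per kilobase (n = 6), above EHHADH at 152 ± 30.0 and HSD17B4 at 132 ± 27.1. The ranges of these genes with OO overlapped, at 133 to 220, 115 to 178 and 98.7 to 169 CPM per kilobase. The exon length of ACAA1 counts the exons of both transcript models, and a shorter length would give a higher level per kilobase.

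The first comparison asks what oxidized oil did to the pathway, with OO against Control. The thiolase ACAA1 and the dienoyl-CoA isomerase ECH1, which prepares polyunsaturated acids for the cycle, rose, by 1.62-fold and 1.74-fold. The other 6 genes, among them the oxidase ACOX2 and the bifunctional enzymes EHHADH and HSD17B4, did not pass the test. Thus 2 of 8 were called, both higher, where 2.71% of the 13831 genes tested were called and 1.37% were called higher. The number called over all genes, 375, depended on single pigs and was 1325 without OO-97 and 167 without OO-130. The median log2 fold change of the 8 genes was 0.06, as was that of all genes tested.

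ACAA1 (ENSSSCG00000011250, chr13:22964844-23020138) encodes the thiolase that closes the cycle. Its level in the Control livers was 318 CPM at the lowest, 430.2 at the median and 534 at the highest, and in the OO livers 559, 679.5 and 924 CPM. All 6 OO pigs were above every Control pig, a separation found for 0.781% of the genes tested. The log2 fold change was 0.69 (SE 0.15, 95% interval 0.39 to 0.99, edgeR adjusted p = 0.0101). The RefSeq exons of ACAA1 share 335 of their 4209 bases with MYD88 and 128 with DLEC1, which lie on the opposite strand, and since the strand setting of the counting is not given, reads from these stretches cannot be told apart.

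ECH1 (ENSSSCG00000028943, chr6:47627056-47638961) had 41.1 CPM at the lowest, 45.6 at the median and 56.8 at the highest in the Control livers, and 54.7, 84.4 and 104.8 CPM in the OO livers. OO-97 had the lowest OO level and lay within the Control range, and the other 5 OO pigs were above every Control pig. The log2 fold change was 0.80 (SE 0.13, 95% interval 0.54 to 1.07, edgeR adjusted p = 0.000821). ECH1 ranked 39 and ACAA1 107 among all genes by p.

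**Figure D1:**
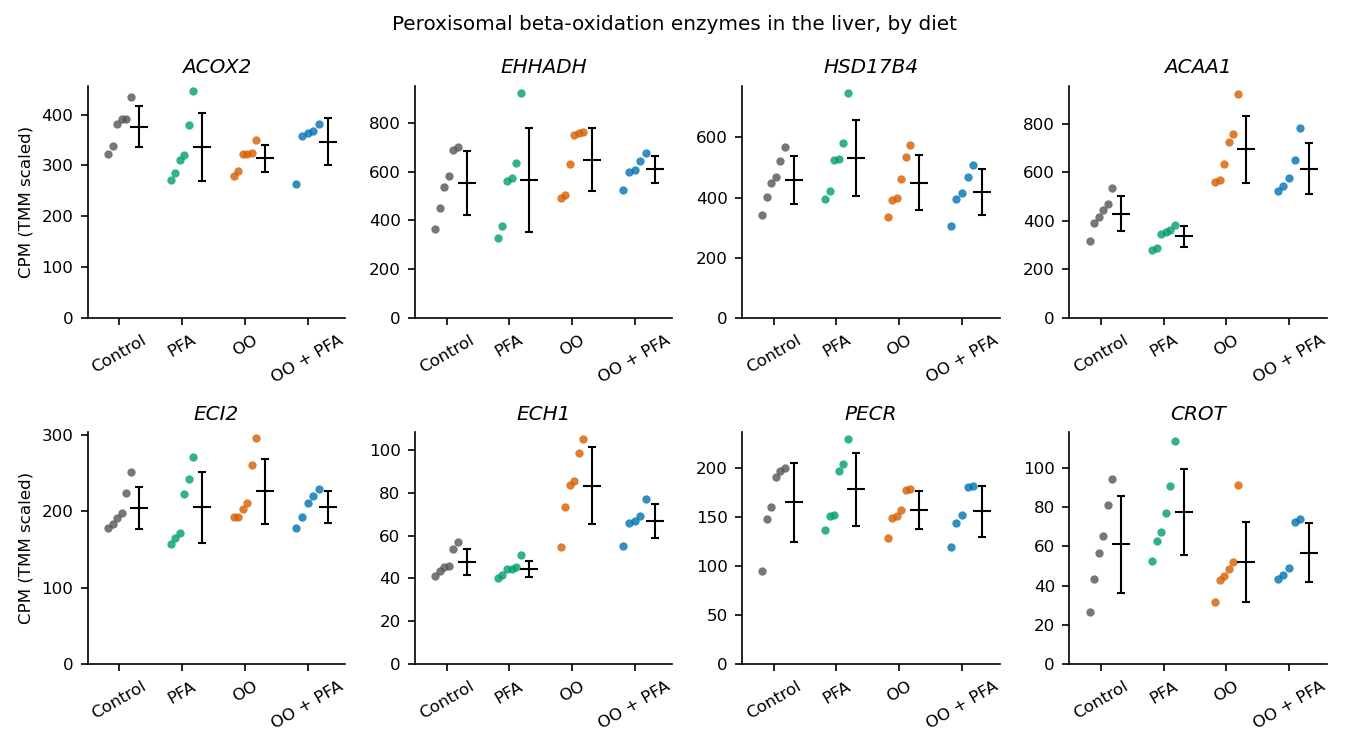
Level of each gene (y axis, CPM with TMM scaling, from 0) in every liver library by diet (x axis); each dot is 1 pig and the bars give mean ± SD, with 6 Control, 6 PFA, 6 OO and 5 OO + PFA pigs. For ACAA1 the OO pigs lie between 559 and 924 CPM, above the Control pigs at 318 to 534, while for ACOX2, HSD17B4 and PECR the diets overlap.

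Of the enzymes that open the cycle, ACOX2 (ENSSSCG00000011477, chr13:40220952-40255967) is the oxidase for branched chains and bile acid precursors. Its levels were 322 to 434 CPM in the Control livers and 278 to 349.9 CPM with OO, and 3 of 6 OO pigs were below every Control pig. The log2 fold change of -0.26 (SE 0.12) had an unadjusted p of 0.0465 and an edgeR adjusted p of 0.227, so it was not called.

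EHHADH and HSD17B4 both carry the middle steps of the cycle, the former mainly for straight chain and dicarboxylic acids. The latter also serves branched chains and bile acid precursors. EHHADH (ENSSSCG00000040296, chr13:123104085-123162119) had 366 to 702 CPM in the Control livers and 492 to 762 CPM with OO, with a log2 fold change of 0.23 (95% interval -0.20 to 0.65). HSD17B4 (ENSSSCG00000028431, chr2:123313445-123401386) had 341 to 567 CPM in the Control livers and 336 to 576 CPM with OO, with a log2 fold change of -0.03 (95% interval -0.38 to 0.32). In both genes the groups overlapped, and 3 of 6 OO pigs were above every Control pig for EHHADH.

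The auxiliary enzymes ECI2 and PECR move or reduce unsaturated positions of the chain. ECI2 (ENSSSCG00000001000, chr7:2426126-2446172) had 179 to 251 CPM in the Control livers and 192 to 296 CPM with OO, with a log2 fold change of 0.15 (95% interval -0.15 to 0.44). Its exons share 58 of 1849 bases with the antisense long non-coding RNA gene LOC110261764. PECR (ENSSSCG00000022758, chr15:118296359-118335886) had 95.0 to 199.8 CPM in the Control livers and 129 to 179 CPM with OO, with a log2 fold change of -0.07 (95% interval -0.41 to 0.27). CROT (ENSSSCG00000015391, chr9:93263606-93308150) makes the carnitine esters in which shortened chains leave the peroxisome. It had 26.4 to 94.1 CPM in the Control livers and 31.8 to 91.2 CPM with OO, and its log2 fold change of -0.23 had the widest interval of the 8 genes in this comparison, -0.79 to 0.32. Within the PL libraries alone the log2 fold change was 0.68 for CROT and 0.38 for PECR, and neither was called.

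**Figure D2:**
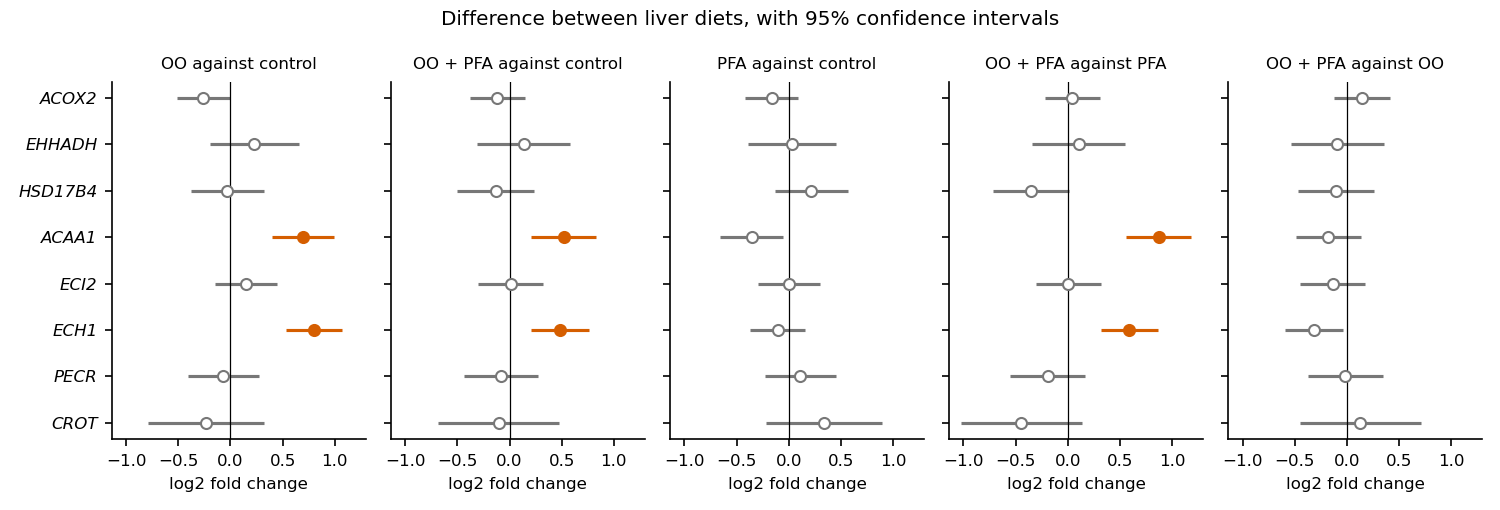
Log2 fold change (x axis) of each gene (y axis) in 5 comparisons of liver diets, as points with 95% confidence intervals; orange filled points have an edgeR adjusted p of at most 0.05. ACAA1 and ECH1 are called in the 3 comparisons of a diet with oxidized oil against one without it, and no gene is called for PFA against Control or OO + PFA against OO.

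Some library measures moved with the diets. The share of read pairs that fell outside annotated genes was 10.9% to 17.4% in the Control livers and 7.23% to 10.5% in the OO livers. With this share as a term of the fit, ACAA1 had a log2 fold change of 0.66 (edgeR adjusted p = 0.225) and ECH1 of 0.78 (adjusted p = 0.0453). The 14 livers of all diets whose titles begin with PigLiv, 7 of them Control or OO, were fitted on their own. There the log2 fold change was 0.79 for ACAA1 (edgeR adjusted p = 0.0428) and 0.98 for ECH1 (adjusted p = 0.00195). In a fit of the 9 livers titled PL, among them 2 Control and 3 OO, it was 0.49 (adjusted p = 0.45) and 0.50 (adjusted p = 0.401). What the form of the title stands for is not stated in the labels. Of the 8 hepatocyte markers, SERPINA1 (log2 fold change -1.25, edgeR adjusted p = 0.015, only 11 to 155 counts per liver) and CYP2E1 (-0.62, adjusted p = 0.0211) were lower with OO. The other 6 were not called, and 3 of the 8 had a positive log2 fold change. The summed level was 88616 to 160473 CPM in the Control livers and 100063 to 126612 CPM with OO. Of 5 macrophage markers 0 were called by edgeR, and their summed level was 107 to 335 CPM in the Control livers and 243 to 401 CPM with OO. The part of these measures in the result was not tested, except as given.

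The second question is what oxidized oil did in the presence of PFA. ACAA1 and ECH1 were also higher in OO + PFA than in Control and than in PFA, and none of the other 6 genes was called in either comparison. In the OO + PFA livers, ACAA1 stood at 542 CPM in OP-79, 649 in OP-98, 578 in OP-105, 521 in OP-126 and 783 in OP-137. Of these 5 pigs 4 were above every Control pig, and all 5 were above every PFA pig, whose lowest, median and highest levels were 279.9, 351 and 382 CPM. ECH1 stood at 66.8 CPM in OP-79, 66.0 in OP-98, 69.2 in OP-105, 55.2 in OP-126 and 77.01 in OP-137. Again 4 of 5 were above every Control pig and all 5 above every PFA pig, at 40.1 to 51.0 CPM with a median of 44.2. In both genes the exception against Control was OP-126.

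In OO + PFA against Control the log2 fold change was 0.52 (SE 0.15, edgeR adjusted p = 0.0471) for ACAA1 and 0.49 (SE 0.13, adjusted p = 0.038) for ECH1, where 5.08% of genes were called and 4.09% were called higher (702 genes called, 191 without C-71 or C-100 and 1127 without OO-97). These calls lay near the threshold: without any one of the Control pigs C-71, C-92, C-100 and C-110 or of OP-79, OP-98, OP-105 and OP-137 both were lost, and with OP-77 added the adjusted p was 0.0222 and 0.0152. In OO + PFA against PFA the log2 fold change was 0.87 (SE 0.15, adjusted p = 0.00264) for ACAA1 and 0.59 (SE 0.13, adjusted p = 0.0245) for ECH1, where 1.58% of genes were called (218 genes, 103 without OP-137 and 411 without P-138), 1.24% were called higher and in 4.69% the OO + PFA pigs were wholly above the PFA pigs. The call of ECH1 was lost without P-67 (adjusted p = 0.0535), P-107 (0.0607) or OP-137 (0.083). Within the libraries titled PigLiv the log2 fold changes against PFA were 0.82 (adjusted p = 0.0657) and 0.63 (adjusted p = 0.0606), and those titled PL hold only 1 OO + PFA pig.

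The third question is what PFA did in the liver, without and with oxidized oil, and no gene of the 8 passed the test. For PFA against Control 0 of 8 genes were called by edgeR, where 0.0% of all genes were called, 1522 genes had an unadjusted p under 0.05 and DESeq2 called 41 genes and 0 of the 8. ACAA1 was the gene of the 8 with an unadjusted p under 0.05, with a log2 fold change of -0.35 (95% interval -0.65 to -0.06, edgeR adjusted p = 0.41), and 2 of 6 PFA pigs, P-134 and P-138, were below every Control pig. For OO + PFA against OO likewise 0 of 8 and 0.0% of all genes were called by edgeR, 1176 genes had an unadjusted p under 0.05 and DESeq2 called 35 genes and 0 of the 8. ECH1 had a log2 fold change of -0.32 (95% interval -0.60 to -0.04, adjusted p = 0.548) and ACAA1 of -0.18 (95% interval -0.49 to 0.14). The median ECH1 level thus went from 45.6 CPM in Control to 84.4 with OO and 66.8 with OO + PFA, and the last step did not pass the test.

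Whether the oil acted differently with and without PFA was tested as an interaction, and 0 of 8 genes and 0.0% of all genes were called by edgeR. In this test 1881 genes had an unadjusted p under 0.05, none of the 8 among them, and DESeq2 called 155 genes and 0 of the 8. For ACAA1 the interaction was 0.18 on the log2 scale (95% interval -0.25 to 0.61) and for ECH1 -0.21 (95% interval -0.60 to 0.17). Across the 4 diets together, ACAA1 (adjusted p = 0.00024) and ECH1 (adjusted p = 0.000202) differed, where 3.66% of all genes were called (506 genes, 297 without C-85 and 1450 without OO-97).

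Other peroxisomal genes show where the 8 enzymes stand in OO against Control. Of 20 further fatty acid enzymes and transporters of the peroxisome that were tested, 4 rose and 0 fell, with a median log2 fold change of 0.17. The strongest by p was SLC27A2, a fatty acid transporter and very long chain acyl-CoA synthetase, at 1.83 (SE 0.19, edgeR adjusted p = 2.14e-06). The other 3, named after their values were seen, were ABCD3, a fatty acid importer of the peroxisomal membrane, at 1.66, MLYCD, which removes malonyl-CoA, at 1.80, and CRAT, an acetyl transferase to carnitine, at 1.26. Catalase (CAT), which removes hydrogen peroxide, had a log2 fold change of -0.22 (edgeR adjusted p = 0.503). The smallest adjusted p among those lower was 0.5, in ABCD4 at -0.18.

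Of 13 peroxins tested, which build the peroxisome and import its proteins, 1 rose, PEX11A, at a log2 fold change of 1.31 (SE 0.16, edgeR adjusted p = 3.16e-05). It promotes division of peroxisomes. The median over the peroxins was 0.18. Of 16 mitochondrial enzymes of beta-oxidation, 9 rose and 0 fell, with a median of 0.86. There the smallest p belonged to CPT1A, the gate of the mitochondrial pathway, at 1.60 (SE 0.15, adjusted p = 4.93e-07), and the lower enzyme with the smallest p was HADH at -0.28 (adjusted p = 0.176). In OO + PFA against Control, 5 of 20 further peroxisomal genes, 1 of 13 peroxins and 9 of 16 mitochondrial enzymes were higher, and 0, 1 and 0 were lower. In OO + PFA against PFA the numbers higher were 4, 0 and 6, and 0 were lower in each list.

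**Figure D3:**
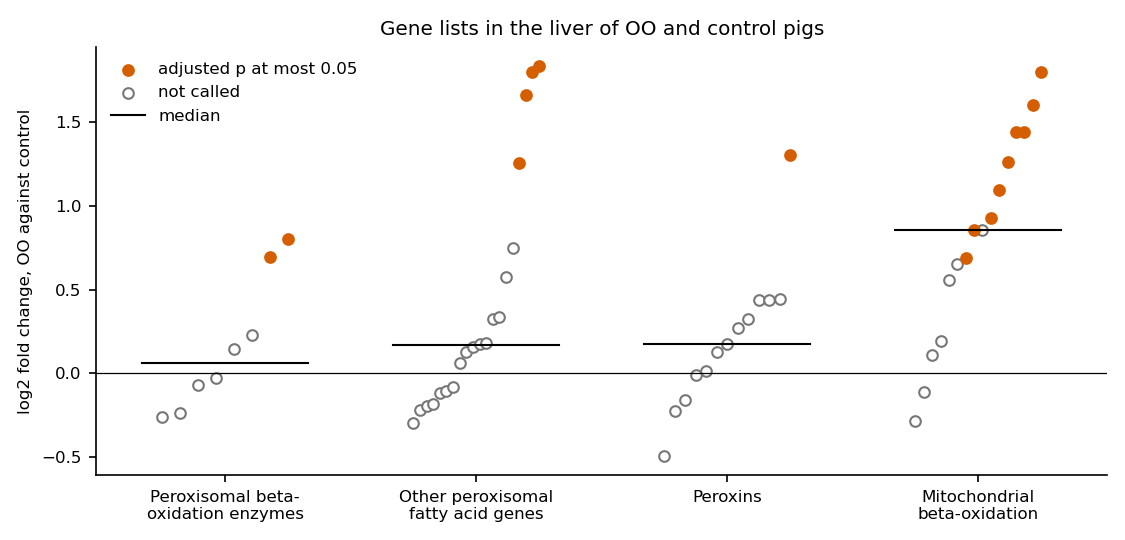
Log2 fold change of OO against Control in the liver (y axis) for the 8 peroxisomal beta-oxidation enzymes and 3 further gene lists (x axis); orange points have an edgeR adjusted p of at most 0.05, and black lines mark the list medians. The peroxisomal enzymes have 2 called of 8 and a median of 0.06, the mitochondrial enzymes 9 of 16 and a median of 0.86.

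Before the correction for GC content described below, the 8 genes did not vary as a unit between pigs of the same diet. After removal of the diet means, Pearson's r over the 23 livers was at most 0.86 among the 28 pairs of genes, and 8 pairs, all positive, had an adjusted p of at most 0.05 (permutation within diets, two-sided, Benjamini-Hochberg over 28 pairs). The closest pair was HSD17B4 and PECR, with r = 0.86, rho = 0.84 and an adjusted permutation p of 0.00028, and r = 0.83 without the 2 libraries farthest from the median of HSD17B4. ACAA1 and ECH1, the genes that rose with the oil, also went together within diets, with r = 0.76, rho = 0.75 and an adjusted permutation p of 0.00177 for r and 0.00378 for rho, and r = 0.70 without the 2 libraries farthest from the median. Within the 14 PigLiv and the 9 PL libraries r was 0.96 and 0.88 for HSD17B4 with PECR and 0.67 and 0.79 for ACAA1 with ECH1. ACAA1 and HSD17B4, which follow each other in the cycle, had r = -0.02.

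The relation of the genes to the base composition of each library was examined after the correlations were seen. Each liver library was given a GC difference, the median log2 level of GC-rich genes (at least 58.8% GC) minus that of GC-poor genes (at most 44.0%), both relative to the mean of the libraries. It was -0.41 to 0.25 in Control, -1.05 to 0.10 in PFA, -0.81 to 0.84 in OO and 0.01 to 0.99 in OO + PFA livers. Within diets HSD17B4, the member with the lowest GC content (40.8%), went with it at r = -0.86, rho = -0.87 (adjusted permutation p = 4e-05 for r and 8e-05 for rho, 8 relations), and at r = -0.88 without the 2 libraries with the most extreme values. PECR (44.7% GC) had r = -0.68, rho = -0.72 (adjusted permutation p = 4e-05 and 8e-05) and EHHADH (45.6% GC) r = -0.62, rho = -0.53 (adjusted permutation p = 0.00419 and 0.0457). The relation did not follow the GC content of the gene throughout, since CROT (42.1% GC) had r = -0.41 and ACOX2 (51.3% GC) r = -0.37, both with an adjusted permutation p of 0.0884, and within the PigLiv libraries r was -0.09 for CROT. ECI2 (55.1% GC) had r = 0.24 (adjusted permutation p = 0.331). ACAA1 (57.7% GC) had r = 0.36 and ECH1 (55.8% GC) r = 0.55, with adjusted permutation p of 0.158 and 0.0715 for r.

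A correction for GC content in each library lowered some of these relations and raised others. The median r of the 6 pairs among HSD17B4, PECR, EHHADH and CROT went from 0.65 to 0.51. For the 6 pairs among ACOX2, ACAA1, ECH1 and ECI2 the median went from 0.37 to 0.47. For the 16 pairs with 1 gene from each of these groups it went from 0.02 to 0.28. With the correction, the within-diet r was 0.78 for HSD17B4 with PECR and 0.64 for ACAA1 with ECH1. It was 0.62 instead of -0.02 for HSD17B4 with ACAA1, and 0.78 instead of 0.34 for EHHADH with ACAA1. In the fit with this correction the log2 fold change of OO against Control was 0.63 for ACAA1 (edgeR adjusted p = 0.00817) and 0.78 for ECH1 (adjusted p = 0.00019). A GC value was at hand for all 8 genes but for 78.8% of the genes tested in the liver, under the 80% required for a check over all genes, and the correction is read here for the 8 genes alone.

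**Figure D4:**
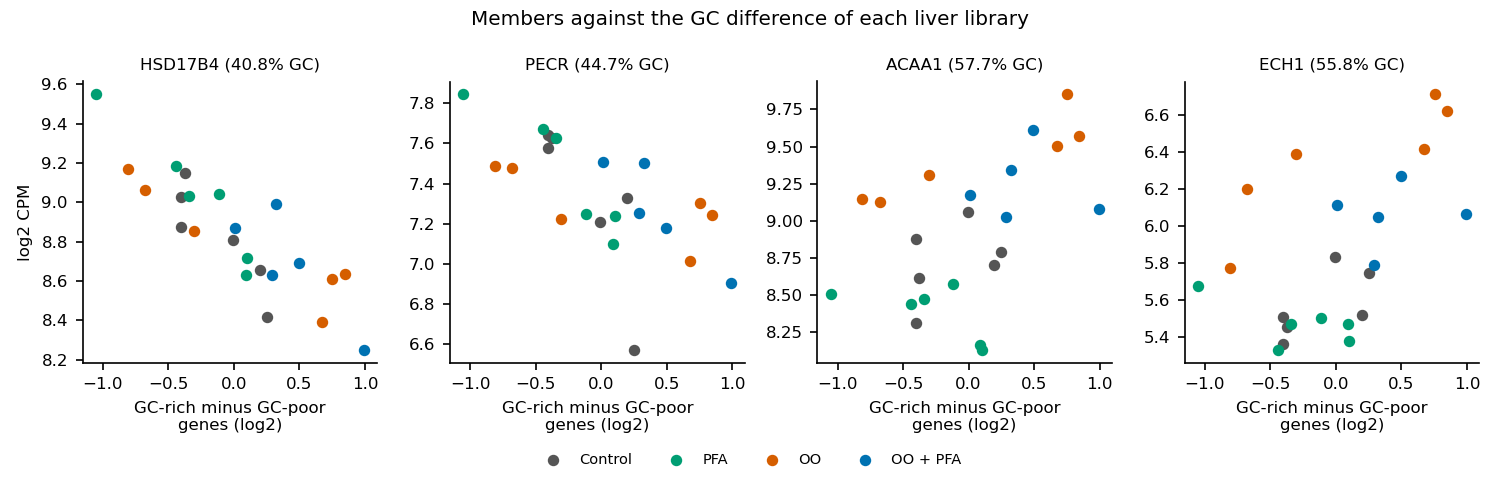
Level of HSD17B4, PECR, ACAA1 and ECH1 (y axis, log2 CPM, own scale per panel) against the GC difference of the library (x axis, log2) in 23 livers, 1 dot per pig, coloured by diet. HSD17B4 and PECR are lower in libraries with a higher GC difference (within-diet r = -0.86 and -0.68), and for ACAA1 and ECH1 the OO and OO + PFA pigs lie mostly above the Control and PFA pigs.

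Among genes outside the 8, those most like the mean standardized log2 level of the 8 over the 23 livers were AIFM1 (r = 0.90), GOT2 (0.85), VWA8 (0.84), SQOR (0.83) and MTARC2 (0.83). Within diets r was 0.90, 0.87, 0.83, 0.82 and 0.83 in the same order. None of these 5 was called in OO against Control by edgeR, where their log2 fold changes ranged from 0.04 in GOT2 to 0.22 in SQOR. All libraries share the same scaling, and these values are a description.

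The tissues were compared in the 10 pigs that gave both, as a measure of how far the pathway belongs to the liver. For this, the 20 libraries were scaled together, so levels are comparable within this comparison and differ from those given above for the liver alone. The libraries of the tissues also differed in the form of their titles. The paper gives a higher lower limit of RNA integrity for the ileum than for the liver. The share of read pairs outside annotated genes was 17.5% to 20.6% in the ileum and 6.53% to 17.4% in the 23 livers. Effects of tissue and of these library differences cannot be told apart. All 8 genes were higher in the liver, where 78.1% of the 14982 genes tested differed between the tissues and 37.5% were higher in the liver. The difference was widest in ACOX2, at 22.3-fold, followed by ECI2 at 13.3-fold and ACAA1 at 12.1-fold, and narrowest in ECH1 at 2.88-fold and CROT at 1.64-fold. For 7 of 8 genes, all but CROT, every liver was above every ileum, which held for 20.4% of the genes tested. Of the further lists, 19 of 21 peroxisomal fatty acid genes, 12 of 13 peroxins and 15 of 16 mitochondrial enzymes were also higher in the liver, and 1, 0 and 0 were lower.

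ACOX2 stood at 125 to 206 CPM per kilobase in the liver and 4.85 to 8.99 in the ileum, so that the liver was 15.6 to 32.01 times higher within a pig. Its log2 fold change was 4.48 (SE 0.14, edgeR adjusted p = 1.94e-17). ACAA1 stood at 95.2 to 165 and 8.74 to 12.8 CPM per kilobase (log2 fold change of 3.597, SE 0.11) and ECI2 at 122 to 197 and 8.61 to 17.3 (3.73, SE 0.14). EHHADH, HSD17B4 and PECR lay between, with log2 fold changes of 2.93, 2.91 and 2.77. ECH1 stood at 41.8 to 55.8 CPM per kilobase in the liver and 13.3 to 19.0 in the ileum (1.53, SE 0.08).

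CROT was the gene whose tissues overlapped. Its level per kilobase in the liver was 43.8 in C-71, 12.4 in C-80, 27.0 in C-92, 30.5 in C-100 and 38.6 in C-110, and 25.7 in P-75, 54.7 in P-95, 36.2 in P-107, 29.5 in P-134 and 31.2 in P-138. In the ileum of the same pigs, in the same order, it was 18.4, 6.79, 21.2, 17.6 and 19.3, and 23.8, 24.1, 19.9, 20.6 and 32.1 CPM per kilobase. The liver was higher in 9 of 10 pigs, and P-138 was the exception. C-80 had the lowest level in both tissues. Its liver library had 25.9% of pairs on no single gene, with 17.4% outside annotated genes, both the highest of the 23 livers used. The part of these measures in its level was not tested. The log2 fold change of CROT between the tissues was 0.71 (SE 0.21, edgeR adjusted p = 0.00431). CROT made up a median of 14.7% of the summed level per kilobase of the 8 genes in the ileum and 3.19% in the liver, and ACOX2 5.26% and 16.2%. HSD17B4 held the same median share of 20.8% in both tissues.

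**Figure D5:**
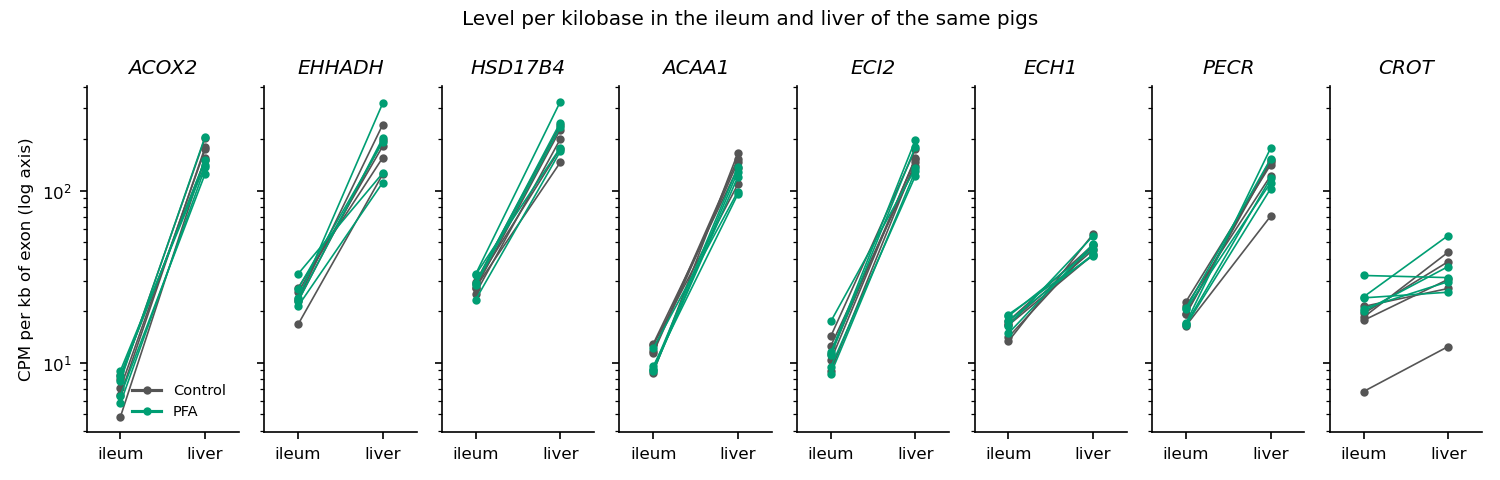
Level per kilobase of exon (y axis, CPM per kilobase, log axis) of each gene in the ileum and liver (x axis); each line joins the 2 libraries of 1 pig, 5 Control (grey) and 5 PFA (green). Every line rises towards the liver except that of P-138 in CROT, and the steepest rise is that of ACOX2.

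In the ileum PFA was compared with Control, with 5 pigs each, and 0 of 8 genes were called by edgeR. There 0.0% of the 14300 genes tested were called, 401 genes had an unadjusted p under 0.05, none of the 8 among them, and DESeq2 called 5 genes and 0 of the 8. CROT had the largest difference. With PFA it stood at 89.8 CPM in P-107, 95.2 in P-134, 147 in P-138, 109 in P-75 and 109.6 in P-95, and in the Control ileum at 79.7 in C-100, 89.5 in C-110, 84.1 in C-71, 30.3 in C-80 and 96.4 in C-92. The groups overlapped, and the log2 fold change was 0.53 (95% interval -0.04 to 1.11, edgeR adjusted p = 0.991). When each library was left out, it was 0.33 to 0.62. C-80, the lowest pig, had a summed level of 7 B and T cell markers of 615 CPM in the ileum. The other Control pigs had 264 to 309 CPM and the PFA pigs 241 to 383 CPM. The part of this in the difference was not tested. ACAA1 stood at 71.0 ± 9.74 CPM in Control and 60.8 ± 8.73 with PFA (SD, n = 5 each), with a log2 fold change of -0.23 (95% interval -0.51 to 0.06). For the other 6 genes the log2 fold changes were between -0.11 in PECR and 0.15 in ECH1. Of the further 21 peroxisomal fatty acid genes, 13 peroxins and 16 mitochondrial enzymes tested in the ileum, 0 were called by edgeR.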

How the data were processed

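RNA-Seq libraries (Illumina stranded TruSeq, poly(A) enrichment) were made from 24 livers and 10 ileum samples. The authors aligned the reads with STAR 2.6.1d (version from the submitters' processing notes) to Sscrofa11.1 and deposited read pair counts per Ensembl gene from HTSeq, without normalization. The annotation release and strand setting are not given in the sources used here. Rows for pairs on no single gene (13.5% to 36.7% of pairs) were left out of library sizes. Symbols were found for 14857 genes and positions for 13544.

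Counts were analysed with edgeR 4.0.16 (TMM, filterByExpr, quasi-likelihood test) in R 4.3.3, with limma 3.58.1 and DESeq2 1.42.0 (an alternative), and with Python 3.11.15, numpy 2.4.6, pandas 2.3.3 and matplotlib 3.10.9. The log2 CPM used a prior count of 2. The edgeR fits of the liver, the ileum and the tissues were tested on simulated counts, and the other steps were not. The liver fit held 23 libraries, the ileum fit 10 and the tissue fit 20. Labels give liver and ileum libraries of the same pig the same number. Their deviations from the diet means correlated at a median of 0.15 (-0.25 to 0.54), with 8 of 10 pigs over 0.1. For only 3 of the 10 livers was the ileum of the same pig the one that correlated best. The pairing is therefore taken from the labels. Correlations were tested with 100000 permutations.

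The genes and lists were chosen with earlier results of these data known. All 9 genes were named in every comparison, and from each further list the gene with the smallest adjusted p in each direction, with CAT. Results for some of the genes so chosen are not reported here. Alternatives were DESeq2, other scaling (RLE, upper quartile), a GC correction (lowess, span 0.5), other filters (none, or a minimum of 10 counts per library), all 24 livers, terms for the title form or the share of pairs outside genes, each title form alone, only the diets compared, control or PFA pigs alone, a block for the pig, and leaving out each library. Quantitative PCR was not analysed here.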

Additional observations from a re-analysis of the deposited data

Results flagged for a closer look

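Of 48 groups of 5 or 6 pigs, 8 genes in 6 groups, 4 held a pig far from the others by Dixon's criterion, which chance alone gives in about 1 of 20 groups. CROT was lowest in the ileum of C-80, at 30.3 CPM, where the other Control pigs had 79.7 to 96.4, and highest in the OO liver of OO-97, at 91.2 CPM, where the others had 31.8 to 52.0. ACOX2 was lowest in the OO + PFA liver of OP-79, at 264 CPM against 357 to 382. ACAA1 was highest in the PFA ileum of P-134, at 76.1 CPM against 55.3 to 59.2.

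The liver of OP-77, left out of the fits, entered the comparisons above only where it is named as added. ACAA1 stood there at 679 CPM and ECH1 at 77.1 CPM, above the highest Control pig at 534 and 56.8 CPM. In the same library ACOX2 (207 CPM), EHHADH (162), HSD17B4 (132), PECR (42.1) and CROT (18.9) were below all 23 other livers. Its GC difference was 1.404 on the log2 scale, against -1.05 to 0.99 in the other livers. The part of this in the levels was not tested.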

How the results depend on the processing

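For OO against Control, 2 genes were called (ACAA1 and ECH1) and remained so when each library was left out (2 throughout, log2 fold changes of 0.60 to 0.77 and 0.73 to 0.90). With the share of pairs outside genes as a term 1 was called, with only the diets compared 1 (ACAA1 had an adjusted p of 0.0549), and with only the PL libraries 0. For OO + PFA against Control, 0 were called with RLE scaling, with the share outside genes as a term and in the PL libraries, 1 with upper quartile scaling, without a filter, with the GC correction (ACAA1 at 0.40, adjusted p = 0.0858) and in the PigLiv libraries, and 0 to 2 without each library. ACAA1 alone was lost without C-80, P-67, P-75, P-107, OO-88, OO-99 or OP-126. For OO + PFA against PFA, 0 were called in the PigLiv or PL libraries alone and 1 to 2 without each library. Across the diets 0 were called in the PL libraries, which hold 2 Control, 3 PFA, 3 OO and 1 OO + PFA pig. The cause of these changes, including the smaller number of libraries in some fits, was not tested. The paired fit of the tissues, with the pig as a replicate block, called 8 of 8 genes, as without the block, and changed no call. None of the other 6 genes was called under any alternative in the liver. No value that was called changed its direction, and 1961 of the values recomputed kept their call or size, 27 moved and 44 lost their call. The median log2 fold change of all genes between tissues was -0.05, -0.15 without a filter and -0.20 with upper quartile scaling, and in the other comparisons and settings it moved by less than 0.1. Among the values not called, OO against Control turned in direction for CROT (0.68) and PECR (0.38) in the PL libraries and for EHHADH (-0.11) with the share outside genes as a term. The small differences of HSD17B4 and ECI2 also turned, reaching 0.24 and -0.04 under alternatives other than leaving out a library. Without single libraries HSD17B4 reached 0.04 and PECR 0.01. Over all genes, OO against Control called 375 (167 without OO-130 to 1325 without OO-97, and 8 to 1089 under the other alternatives), OO + PFA against Control 702 (191 without C-71 or C-100 to 1127 without OO-97, and 12 to 1690), OO + PFA against PFA 218 (103 without OP-137 to 411 without P-138, and 30 to 1225), and the 4 diets together 506 (297 without C-85 to 1450 without OO-97, and 44 to 1787). Depth did not limit these genes, and intervals cover the spread between pigs only.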
